A study of Arabidopsis thaliana with 36 samples.

Results

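The transcript levels of 10 transcription factors linked to the phosphate (Pi) starvation response were followed through 36 RNA-seq libraries of Arabidopsis thaliana seedlings. The members were taken by their gene identifiers from the 28496 named genes of the expression table, and all 10 were found: PHR1 (AT4G28610), PHL1 (AT5G29000), PHL2 (AT3G24120), PHL3 (AT4G13640), WRKY75 (AT5G13080), WRKY6 (AT1G62300), WRKY42 (AT4G04450), ZAT6 (AT5G04340), MYB62 (AT1G68320) and BHLH32 (AT3G25710). The study compared the Col-0 wild type (WT) with 2 lines, 35S:PHT5;1-GFP#04 (line 4) and 35S:PHT5;1-GFP#12 (line 12), which express a GFP fusion of PHT5;1, a vacuolar Pi transporter. Seedlings were 10 days old on 250 µM Pi, or were kept after these 10 days for 1 or 3 further days on 10 µM Pi. Shoots and roots were sampled separately, with 2 libraries for each of the 18 combinations of tissue, genotype and Pi supply. All seedlings, the controls included, grew on sucrose agar. The 35S promoter drives PHT5;1 in most tissues, each line is a single transgenic line, each replicate pooled many seedlings, and the starved seedlings were also older and had been moved to new medium. The methods call the replicates biological, and how far they were grown apart is not given in the sources used here. The p-values measure the spread between these libraries.

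PHR1 is the central MYB-CC factor of the Pi response in plants. It binds a short palindrome, the P1BS element, in the promoters of starvation genes, and PHL1, PHL2 and PHL3 are homologues that share much of this work. SPX domain proteins, which sense Pi status through inositol pyrophosphates, bind PHR1 and hold it back while Pi is ample, so the activity of PHR1 is set largely at the protein level. The other members act around this core. WRKY75 modulates starvation genes and root growth, WRKY6 and WRKY42 repress PHO1, the exporter that loads Pi into the xylem, ZAT6 is a C2H2 zinc finger factor that affects root growth and Pi homeostasis and also responds to stress, MYB62 is an R2R3-MYB factor linked to gibberellin, and BHLH32, also known as TMO5, was described as a negative regulator of starvation genes and acts in vascular development.

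Values are RPKM, reads scaled to exon length and to library size, as the authors deposited them. They are already divided by exon length, so levels can be compared between genes. Library totals recovered from the steps between RPKM values ran from 19.0 to 40.7 M reads. At that depth PHR1 had 950 to 2271 reads in every library, while in the shoot WRKY42 had 8 to 34, WRKY75 8 to 372 and MYB62 5 to 59. The highest recovered totals exceed the range of mapped reads per library that the paper gives, and these read numbers rest on them. The gap was not examined. Tissue labels held against marker genes: 5 photosynthesis genes summed to 18652 to 31993 RPKM in shoots and 163 to 374 in roots, and 6 root genes to 3.26 to 13.9 in shoots and 591 to 1008 in roots. Replicate 2 of line 4 roots at 250 µM Pi had the fewest reads (19.0 M). Its summed RPKM was 595689, against 652691 to 689080 in the other root libraries. Its root gene sum of 591 was the lowest of the roots, the next being 719. This library held the lowest root values of PHL1, PHL2, WRKY75, WRKY6, WRKY42 and ZAT6. Its part in the root results of line 4 was not tested. PHT5;1 checked the genotypes at 250 µM Pi, with 14.7 to 15.2 RPKM in WT, 19.0 to 35.5 in line 4 and 65.9 to 74.6 in line 12 in the shoot, and 28.2 to 29.2, 52.1 to 57.5 and 306 to 338 in the root. In starved shoots line 4 lay little above WT, at 21.1 to 21.3 RPKM against 19.3 to 19.9 after 1 day and at 18.9 to 22.0 against 17.5 to 17.9 after 3 days. A set of 5 second-replicate shoot libraries, of WT and line 12 at 250 µM Pi, of line 4 and line 12 after 1 day and of WT after 3 days, held 313 genes seen in no other library, and results that change without them are named below. In such bulk RNA, fewer cells of a type and less transcript per cell cannot be told apart.

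In the TAIR10.1 assembly the minus strand holds PHR1 at chr4:14132811-14135292, PHL1 at chr5:11021980-11024978, PHL2 at chr3:8705608-8708336, PHL3 at chr4:7936592-7938705, WRKY75 at chr5:4149738-4151201, WRKY6 at chr1:23016569-23019494 and ZAT6 at chr5:1216058-1217362. The plus strand holds WRKY42 at chr4:2218042-2221260, MYB62 at chr1:25603676-25605181 and BHLH32 at chr3:9369499-9371487. ZAT6 is the member with 1 exon. PHR1 overlaps AT4G28600 on the opposite strand by 59 bases. Whether the libraries keep strand is not given in the sources used here, so reads from those bases cannot be assigned. The stretches upstream of 3 genes are shown, from the RefSeq annotation of the TAIR10.1 assembly, to show where 2 elements read by members of this set occur: the P1BS element that PHR1 binds (GNATATNC, which reads the same on both strands) and the W-box that WRKY factors bind (TTGACC or TTGACT, either strand). Each run covers the 250 bases before the annotated start of the gene, 5′ to 3′ on the strand of the gene, with matches in capitals. The ZAT6 stretch is the minus strand of chr5:1217363-1217612, that of WRKY75 the minus strand of chr5:4151202-4151451 and that of PHR1 the minus strand of chr4:14135293-14135542.
ZAT6: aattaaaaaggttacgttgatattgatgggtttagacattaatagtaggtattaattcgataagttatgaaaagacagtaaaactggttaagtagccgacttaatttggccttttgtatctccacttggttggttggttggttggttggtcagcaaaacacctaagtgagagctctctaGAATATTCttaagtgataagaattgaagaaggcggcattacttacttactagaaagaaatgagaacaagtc
WRKY75: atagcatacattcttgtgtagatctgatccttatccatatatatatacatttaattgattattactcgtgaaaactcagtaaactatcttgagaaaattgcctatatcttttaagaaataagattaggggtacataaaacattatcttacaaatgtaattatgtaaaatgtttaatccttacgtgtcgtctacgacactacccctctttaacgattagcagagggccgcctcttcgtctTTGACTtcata
PHR1: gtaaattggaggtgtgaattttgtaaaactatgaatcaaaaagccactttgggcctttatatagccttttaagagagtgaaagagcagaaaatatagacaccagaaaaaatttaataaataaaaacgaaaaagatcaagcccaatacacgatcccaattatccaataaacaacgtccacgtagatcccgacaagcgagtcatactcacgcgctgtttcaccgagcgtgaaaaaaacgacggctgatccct

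The capitals in ZAT6 are a P1BS match, GAATATTC, that begins 71 bases before the start. The capitals in WRKY75 are a W-box, TTGACT, that begins 11 bases before the start. PHR1 has neither. Over 300 bases from 250 before to 50 after the start, 1 of the 10 members (ZAT6) held a P1BS match, against 6.3% of 27443 protein-coding genes, and 2 of 10 (WRKY75 and ZAT6, in the latter 33 bases past the start) a W-box, against 32.4%. Over the 1000 bases before the start, 3 of 10 (PHL1, WRKY75 and ZAT6) held a P1BS match, against 20.3% of genes, and 5 of 10 a W-box, against 67.3%. The 2 motifs share no bases in these stretches. A match describes the letters of the window and is not a measured binding site.

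Under Pi-sufficient conditions PHR1 and PHL3 stood highest of the members in WT shoots, and BHLH32, PHR1 and WRKY6 in WT roots. In the shoot at 250 µM Pi the mean level of PHR1 was 36.1 ± 0.287 RPKM (SD, n = 2), that of PHL3 34.9 ± 0.273 (SD, n = 2) and that of PHL2 18.3 ± 0.0791 (SD, n = 2). ZAT6 followed at 8.94 ± 2.28 (SD, n = 2). PHL1 at 6.22, WRKY6 at 5.47 and BHLH32 at 5.27 did not separate from their neighbours in this order, and neither did WRKY75 at 1.08, MYB62 at 0.435 and WRKY42 at 0.294. In the root BHLH32 was at 36.4 ± 0.828 (SD, n = 2), PHR1 at 34.8 ± 0.546 (SD, n = 2) and WRKY6 at 31.9 ± 0.137 (SD, n = 2). PHL2 at 20.9, PHL3 at 19.3, ZAT6 at 16.2, PHL1 at 16.0 and WRKY75 at 14.7 came next, of which ZAT6 and PHL1 overlapped. WRKY42 stood at 2.18 and MYB62 at 0.0979 RPKM, and MYB62 was listed at 0 in 6 of the 18 root libraries.

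To ask which members differ between the organs, roots and shoots of WT were compared in a joint limma model of 36 libraries. Calls in these contrasts required a Benjamini-Hochberg adjusted p below 0.05 over all genes tested together with means at least 2-fold apart. At 250 µM Pi, 5 of 10 members were called, each higher in the root, against 51.1% of all genes tested (median log2 difference of all genes 0.65, of the members 1.1). WRKY75 had 14.8 and 14.7 RPKM in the root libraries and 1.66 and 0.495 in those of the shoot, a log2 difference of 3.65 (standard error 0.46, adjusted p = 1.3e-07). BHLH32 had 35.8 and 36.9 RPKM in the root against 5.30 and 5.25 in the shoot (log2 2.73), and WRKY6 had 32.0 and 31.9 against 6.11 and 4.83 (log2 2.50). WRKY42 had 2.51 and 1.84 against 0.211 and 0.377 (log2 2.16), and PHL1 16.6 and 15.4 against 6.49 and 5.95 (log2 1.33). No library of one organ overlapped with the other organ in these 5 genes. PHR1 differed by -0.05 on the log2 scale (95% interval -0.22 to 0.11, adjusted p = 0.54). After rescaling each library by its median ratio, which removes the shift of all genes between the organs, PHL1 fell short of a ratio of 2 (log2 0.71), PHR1 stood lower in the root (-0.68), and PHL3 and MYB62 were called lower in the root (-1.47 and -1.24). After 3 days at 10 µM Pi, 6 of 10 members were called, against 55.5% of genes. They were the same 5, again higher in the root, and ZAT6, which stood at 69.5 and 72.3 RPKM in the shoot and 23.5 and 21.7 in the root (log2 -1.64, standard error 0.27, adjusted p = 4.7e-06).

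**Figure D1:**
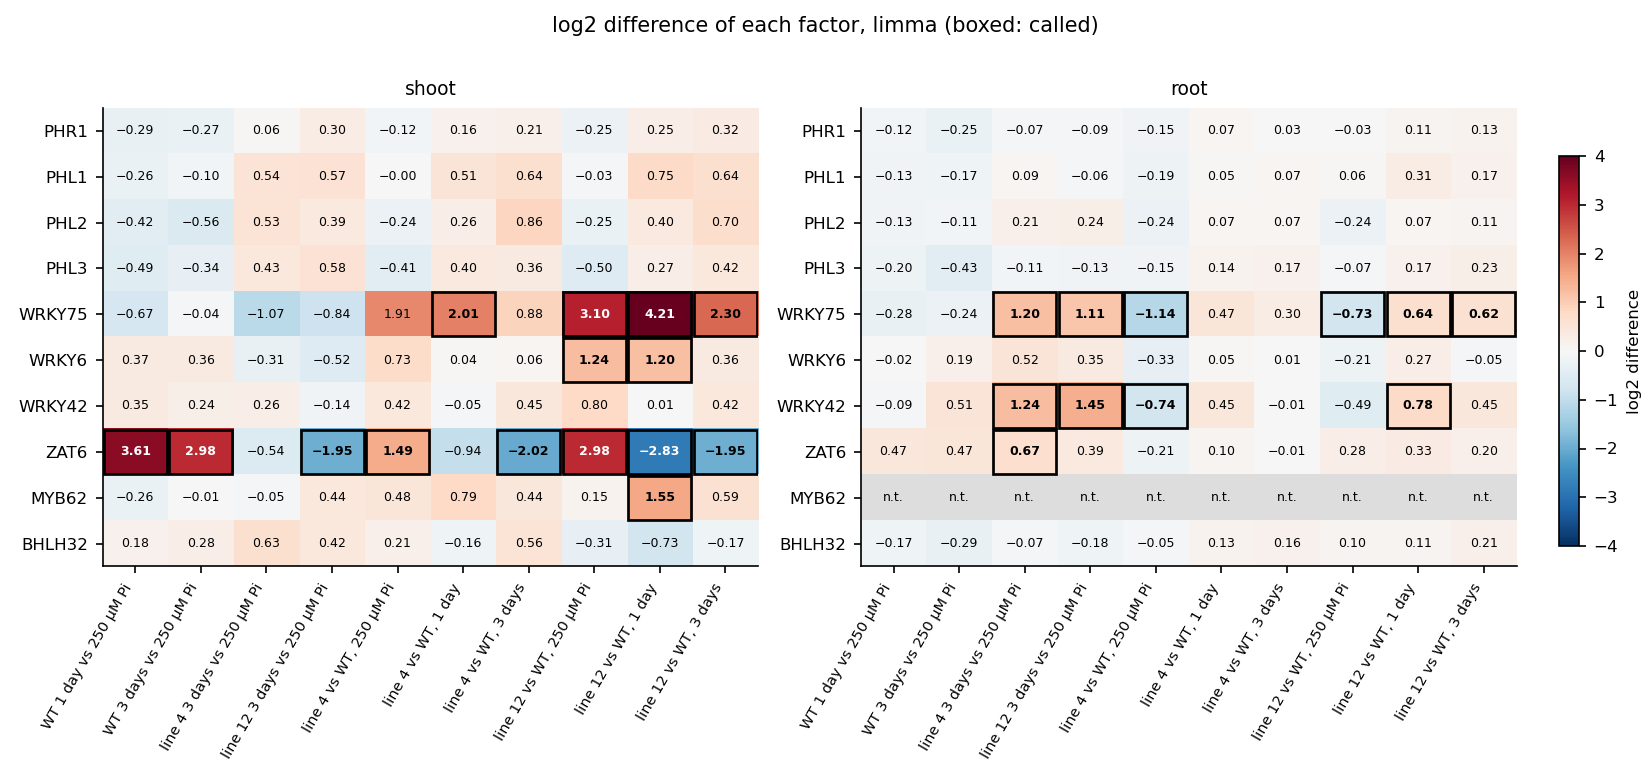
Log2 difference of each of the 10 factors (rows) in 10 comparisons (columns) in shoots (left) and roots (right), from limma on log2(RPKM + 0.25), with a box around each called difference and n.t. where a gene was not tested. In the shoot the boxes fall in WRKY75, WRKY6, ZAT6 and MYB62, in the root in WRKY75, WRKY42 and ZAT6, and no box falls in PHR1, PHL1, PHL2, PHL3 or BHLH32.

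Within each organ only genes averaging 0.25 RPKM or more entered the test, and calls again required an adjusted p below 0.05, with means at least 2-fold apart in shoots and 1.5-fold apart in roots. MYB62 was below that level in roots, so 10 members were tested in shoots and 9 in roots. Calls of these members in starved WT seedlings are given beside the share of all genes called. In the shoot 1 of 10 members, ZAT6, was called after 1 day (6.07% of all genes were called) and the same one after 3 days (6.81%). Between 3 days and 1 day limma called 0 of 10 (1.40% of genes), and 0 passed at an unadjusted p under 0.05. In the root limma called 0 of 9 members after 1 day (5.0% of genes), 0 of 9 after 3 days (12.4%) and 0 of 9 between these times (5.40%), with 3, 5 and 2 at an unadjusted p under 0.05. The list of 12 targets of PHR1 used next was chosen with earlier results of these data known. Its rise is therefore background and not a test. Of the 12, 5 held a P1BS match in the 300-base window described above and 6 in the 1000 bases before the start. In the same WT roots after 3 days, 12 of 12 genes listed as targets of PHR1 were called higher, with a median log2 change of 4.57 against -0.06 over all genes. Of these the largest changes were in PECP1, a phosphatase, from 0.1 to 114 RPKM (log2 8.35), in IPS1, a non-coding RNA that sequesters miR399, from 1.18 to 438 (log2 8.26), and in PS2, another phosphatase, from 2.93 to 222 (log2 6.13). In WT shoots after 3 days 11 of 12 were called higher (median log2 2.86), AT4, the relative of IPS1, most (5.14 to 260 RPKM, log2 5.62), then PAP17, an acid phosphatase (log2 5.07), and PS2 (log2 4.93).

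ZAT6 gave the largest response of the members to starvation in WT shoots. Its level was 7.32 and 10.5 RPKM in the 2 libraries at 250 µM Pi, 102 and 119 after 1 day and 69.5 and 72.3 after 3 days. Every starved WT shoot library was thus above both controls. The log2 change was 3.61 after 1 day (standard error 0.32, adjusted p = 8.9e-06 from limma) and 2.98 after 3 days (standard error 0.32, adjusted p = 3.9e-05). From day 1 to day 3 it moved by -0.64, which did not pass the test (adjusted p = 0.24). In WT roots ZAT6 had 16.0 and 16.5 RPKM at 250 µM Pi, 21.4 and 23.6 after 1 day and 23.5 and 21.7 after 3 days. The starved libraries did not overlap with the controls, but the 3-day ratio of 1.39 was short of 1.5 (log2 0.47, adjusted p = 0.028). The 3-day response of WT differed between the organs by -2.51 on the log2 scale, root minus shoot (standard error 0.37, adjusted p = 9.5e-05). In that difference of responses 2 of 10 members passed the adjusted p, against 14.5% of genes, the other being PHL2.

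In shoots of the lines ZAT6 was higher than in WT at 250 µM Pi and lower after 3 days. At 250 µM Pi ZAT6 stood at 36.9 and 17.1 RPKM in line 4 and at 92.5 and 54.6 in line 12, above both WT libraries, with log2 differences from WT of 1.49 (standard error 0.32, adjusted p = 0.011) and 2.98 (standard error 0.32, adjusted p = 2.6e-05). After 1 day it was 46.3 and 71.2 RPKM in line 4 and 15.1 and 15.6 in line 12, below both WT libraries. Line 12 was called lower than WT (log2 -2.83, adjusted p = 2.5e-05), whereas line 4 passed the adjusted p with a ratio of 0.53 (log2 -0.94, adjusted p = 0.043). After 3 days both lines were low, 15.8 and 18.8 RPKM in line 4 and 18.5 and 17.8 in line 12 (log2 -2.02 and -1.95 from WT, adjusted p = 0.00033 and 0.00048). Within line 12, 3 days of starvation lowered ZAT6 (log2 -1.95, adjusted p = 0.00042), the reverse of WT, and within line 4 the change of -0.54 did not pass (adjusted p = 0.21), except without its replicate 2 at 250 µM Pi (-1.09, adjusted p = 0.020). The 3-day response of line 12 differed from that of WT by -4.93 on the log2 scale (standard error 0.45, adjusted p = 3.6e-06) and that of line 4 by -3.51 (standard error 0.45, adjusted p = 8.3e-05). Both differences and the comparisons of the lines share the WT libraries. The call of line 4 at 250 µM Pi rested on single libraries: without its replicate 1 the log2 difference was 0.94 (adjusted p = 0.14), without WT replicate 1 it was 1.23 (adjusted p = 0.082), and without the 5 libraries with genes of their own 1.75 (adjusted p = 0.16).

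Genes of the rapid stress response moved with ZAT6 in the shoot. The summed level of 8 such genes (WRKY40, WRKY33, WRKY53, ZAT10, ZAT12, SZF1, RRTF1 and MYB51) was 78.2 to 101 RPKM in WT at 250 µM Pi, 1015 to 1331 after 1 day and 492 to 681 after 3 days. In line 4 it was 214 to 348, then 425 to 987, then 152 to 197, and in line 12 708 to 732, then 229 to 251, then 201 to 210. All 8 were called higher in WT after 1 day, 7 of 8 were called higher in line 12 than in WT at 250 µM Pi, and 7 of 8 lower after 1 day. Over all genes 6.07%, 9.04% and 11.3% were called in these comparisons, in either direction. After 1 day in WT the largest changes of the list were those of RRTF1 (log2 4.23), ZAT10 (3.94) and WRKY40 (3.92). In roots the same sum ran from 72.3 to 232 RPKM over all libraries. None of the 8 was at 0 in a shoot library, and their part in the ZAT6 result was not tested. Over the 9 group means of the shoot the r of ZAT6 with the 8 genes ran from 0.63 (RRTF1) and 0.72 (MYB51) to 0.97 (ZAT10) and 0.99 (SZF1), as a description of 9 points that share their libraries.

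**Figure D2:**
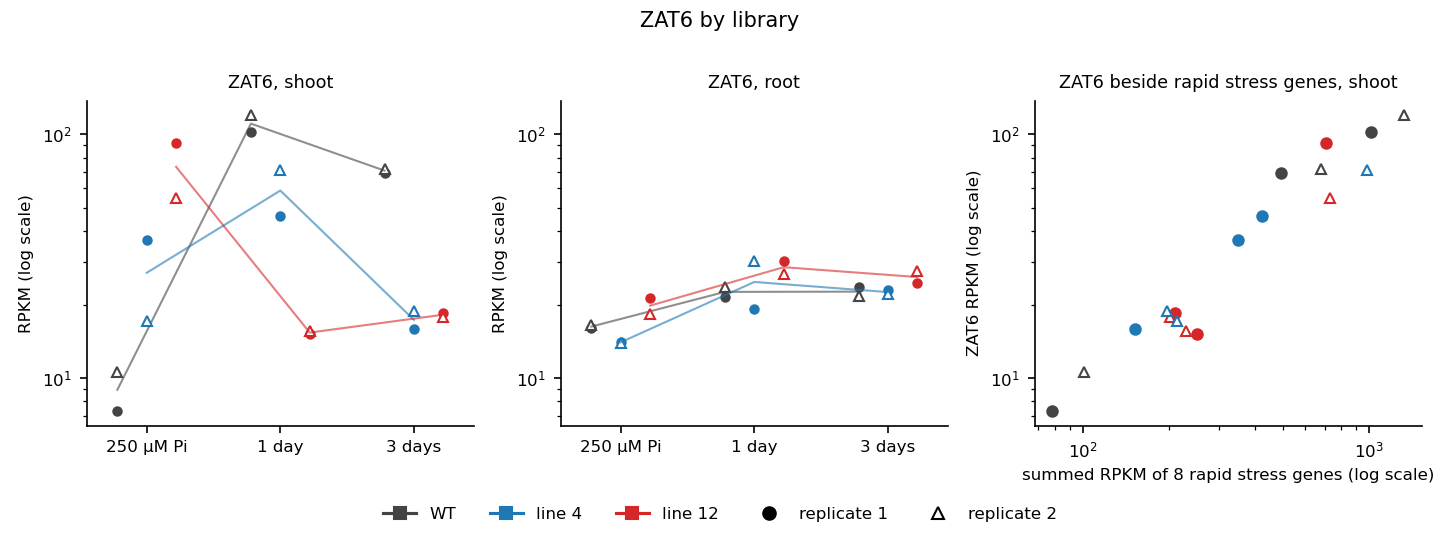
ZAT6 RPKM (log scale) in each library of shoots (left) and roots (middle) by Pi supply and genotype, with lines through the group means, and in shoots against the summed RPKM of 8 rapid stress genes (right, both axes log). In WT shoots the 4 starved libraries lie between 69.5 and 119 RPKM and the controls at 7.32 and 10.5, while in line 12 the controls lie at 92.5 and 54.6 and the starved libraries between 15.1 and 18.5.

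PHR1, the binding factor of the P1BS element, was the steadiest member in RPKM as deposited, within each organ and over both. Over the 36 libraries it ran from 27.9 to 39.5 RPKM, with a median of 33.3, and no comparison by fold within a tissue called it. Between the organs this depended on the scaling. After rescaling by median ratio PHR1 was lower in the WT root than in the shoot, by log2 -0.68 at 250 µM Pi and -0.72 after 3 days. PHL2 then differed less, by -0.44 and -0.04. In WT shoots PHR1 had 36.3 and 35.9 RPKM at 250 µM Pi, 27.9 and 31.4 after 1 day and 28.1 and 31.7 after 3 days. Both starved groups lay under the controls (log2 -0.29 and -0.27, adjusted p = 0.041 and 0.040), and the 95% interval of the 3-day change was -0.47 to -0.07. After the rescaling by median ratio this change was -0.12 (adjusted p = 0.35). In WT roots PHR1 went from 35.2 and 34.4 to 28.1 and 30.2 RPKM after 3 days (log2 -0.25, adjusted p = 0.024, ratio 0.84).

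PHL1, PHL2 and PHL3, the homologues that share targets with PHR1, stood higher in the 3-day starved shoots of both lines than in those of WT, by less than 2-fold. PHL2 went from 18.3 and 18.4 RPKM to 12.0 and 12.7 after 3 days in WT (log2 -0.56, adjusted p = 0.0011, ratio 0.67). In line 4 it was 16.5 and 14.5 RPKM at 250 µM Pi and 21.8 and 23.3 after 3 days, and in line 12 14.6 and 16.2, then 20.0 and 20.4. All 4 libraries of the lines at 3 days were above every WT shoot library. At 3 days line 4 stood above WT by log2 0.86 (adjusted p = 3.4e-05, ratio 1.83) and line 12 by 0.70 (adjusted p = 0.0002, ratio 1.64), both under 2-fold. PHL3 in WT shoots had 34.7 and 35.1 RPKM at 250 µM Pi, 26.0 and 23.6 after 1 day and 25.9 and 29.2 after 3 days. In the lines it started lower, at 25.2 and 27.1 in line 4 and 23.1 and 26.0 in line 12, and ended at 34.2 and 36.4 and at 35.5 and 38.2. PHL1 in WT shoots stayed between 5.07 and 6.49 RPKM, and after 3 days reached 8.71 and 9.62 in line 4 and 8.10 and 10.3 in line 12 (log2 0.64 above WT in either line, adjusted p = 0.0041 and 0.0042). PHR1 itself started under both WT libraries (36.3 and 35.9 RPKM) at 250 µM Pi. It had 33.4 and 33.2 RPKM in line 4 and 31.7 and 29.0 in line 12. After 3 days it reached 34.8 and 34.4 RPKM in line 4 and 35.2 and 39.5 in line 12. These levels were log2 0.21 and 0.32 above WT (adjusted p = 0.087 and 0.016), where the median over all genes was 0.16 and 0.19. After rescaling by median ratio PHR1 differed by 0.05 in line 4 (adjusted p = 0.72) and 0.13 in line 12 (adjusted p = 0.32), and PHL3 by 0.19 (adjusted p = 0.11) and 0.23 (adjusted p = 0.070). PHL1 and PHL2 still passed the adjusted p in both lines, with 0.48 and 0.70 in line 4 and 0.45 and 0.51 in line 12. The summed level of the 5 photosynthesis genes also differed at 3 days, with 27867 to 31993 RPKM in WT, 20205 to 21797 in line 4 and 19281 to 20352 in line 12, and its part in these results was not tested.

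As a difference of 3-day responses, line 12 minus WT, PHR1 (log2 0.57, adjusted p = 0.0048), PHL1 (0.67, adjusted p = 0.023), PHL2 (0.95, adjusted p = 0.00018) and PHL3 (0.92, adjusted p = 0.00011) passed the adjusted p. With WRKY6 and ZAT6 this made 6 of 10 members, where 33.2% of all genes passed and the median over all genes was 0.14. For line 4 PHL1 (0.64, adjusted p = 0.032), PHL2 (1.1, adjusted p = 8.7e-05), PHL3 (0.77, adjusted p = 0.00061) and ZAT6 passed, 4 of 10 members against 29.8% of genes with a median of 0.16. PHR1 was at 0.33 (adjusted p = 0.075) in line 4, and at 0.41 (adjusted p = 0.049) without WT replicate 2 after 3 days. After rescaling by median ratio the line 4 difference of PHL1 was 0.47 (adjusted p = 0.071), while PHL2 and PHL3 still passed in both lines and PHR1 in line 12 (0.43, adjusted p = 0.022). PHL1 also missed the adjusted p without single libraries. In line 12 these were replicate 1 of WT (0.61, adjusted p = 0.073) or line 12 (0.52, adjusted p = 0.097) at 250 µM Pi, WT replicate 1 (0.55, adjusted p = 0.090) and line 12 replicate 2 (0.50, adjusted p = 0.11) after 3 days. In line 4 these were either WT library at 250 µM Pi (0.58 and 0.70, adjusted p = 0.091 and 0.0505), line 4 replicate 2 at 250 µM Pi (0.50, adjusted p = 0.12) or after 3 days (0.57, adjusted p = 0.11), and WT replicate 1 after 3 days (0.52, adjusted p = 0.12). Without the 5 libraries PHL1 was at 0.82 in line 4 (adjusted p = 0.10) and 0.99 in line 12 (adjusted p = 0.069). In roots none of the 4 genes passed this test with all libraries (adjusted p from 0.13 to 0.75). PHL2 passed in line 12 after rescaling (0.36, adjusted p = 0.042), and PHL1 (0.43, adjusted p = 0.049) and PHL2 (0.44, adjusted p = 0.033) passed in line 4 without its replicate 1 at 250 µM Pi. Their root levels ran from 28.1 to 35.2 RPKM for PHR1, 12.4 to 19.3 for PHL1, 16.1 to 22.1 for PHL2 and 14.2 to 19.8 for PHL3. The lowest adjusted p among their changes in WT roots was that of PHL3 after 3 days, from 18.9 and 19.8 to 14.2 and 14.3 RPKM (log2 -0.43, adjusted p = 0.0013, ratio 0.74). PHL2 was the other member whose WT response differed between the organs (log2 0.46, adjusted p = 0.026), a difference that was 0.38 (adjusted p = 0.13) without root WT replicate 2 at 250 µM Pi. It also missed the adjusted p without root WT replicate 2 after 3 days (0.43, adjusted p = 0.087), shoot WT replicate 1 at 250 µM Pi (0.46, adjusted p = 0.058) or after 3 days (0.42, adjusted p = 0.085), or shoot WT replicate 2 at 250 µM Pi (0.45, adjusted p = 0.066).

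**Figure D3:**
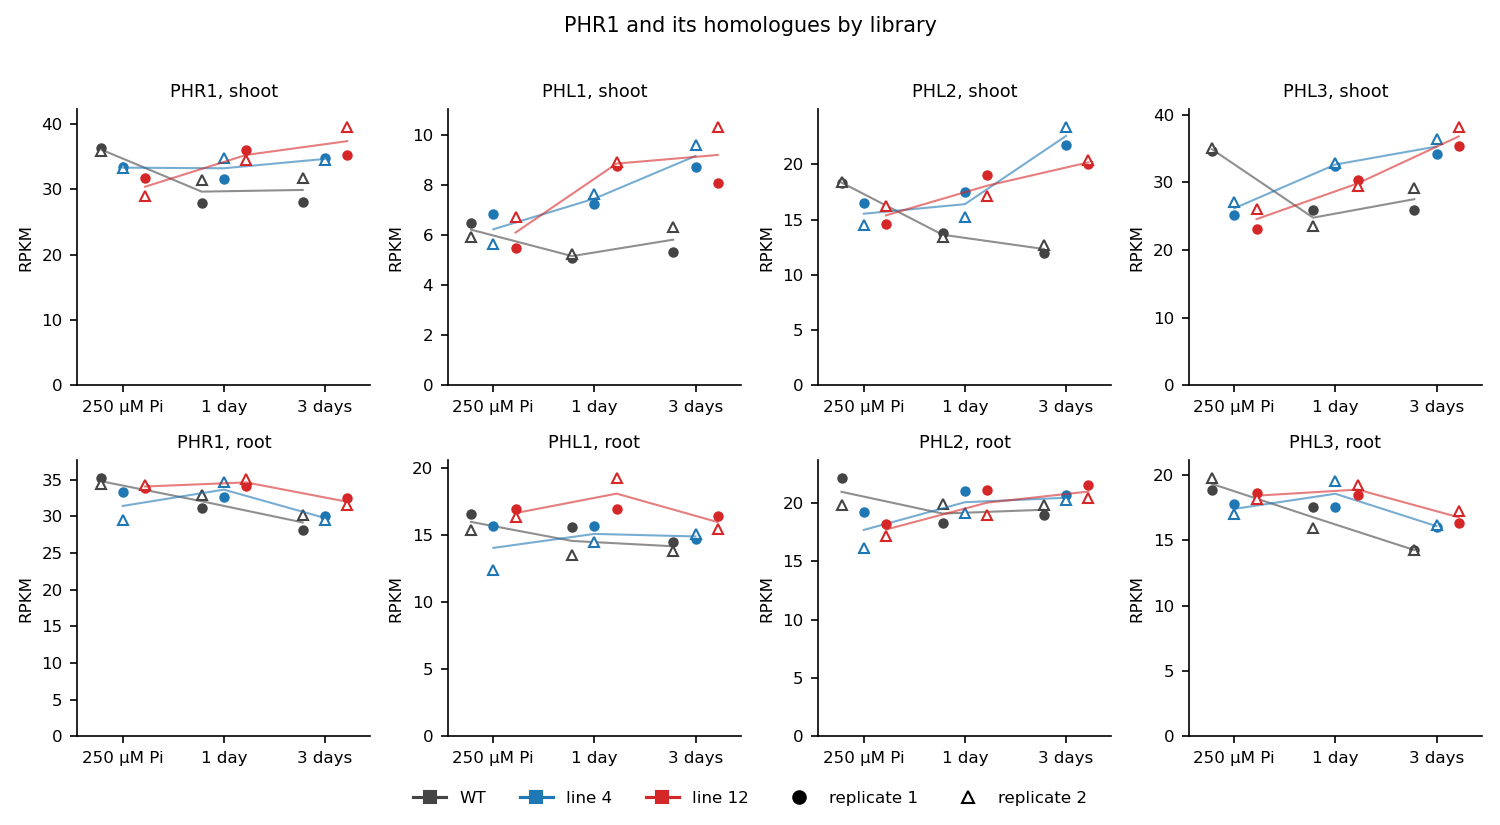
RPKM of PHR1, PHL1, PHL2 and PHL3 (columns) in each library of shoots (top) and roots (bottom) by Pi supply and genotype, with lines through the group means of 2 libraries. In shoots after 3 days PHL2 lies at 12.0 and 12.7 RPKM in WT and between 20.0 and 23.3 in the lines, while in roots the 18 libraries of PHR1 stay between 28.1 and 35.2.

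The SPX genes, whose products hold back PHR1 and which are themselves starvation genes, give the context of these small changes. In WT roots after 3 days SPX1 went from 13.5 to 542 RPKM (log2 5.30, adjusted p = 5.8e-12), SPX2 from 22.0 to 84.8 (log2 1.94) and SPX3 from 0.447 to 71.1 (log2 6.68), and SPX4 fell from 18.9 to 11.5 (log2 -0.71), so 3 of 4 were called higher and 1 lower. In WT shoots SPX1 went from 10.2 to 161 RPKM (log2 3.94), SPX2 from 14.1 to 47.8 (log2 1.73) and SPX3 from 0.0817 to 2.41, and all 3 were called, while SPX4 went from 12.0 to 8.72 (log2 -0.45, ratio under 2). Over all genes 12.4% were called in these WT roots and 6.81% in these WT shoots, in either direction. In starved shoots at 3 days SPX1, SPX2 and SPX3 were called lower than WT in line 4 (log2 -1.89, -1.25 and -1.71) and in line 12 (-1.84, -1.34 and -2.19), 3 of 4 in each. There 8.22% of all genes were called in line 4 and 7.69% in line 12, with medians of 0.16 and 0.19. Of the 12 targets, 7 were called lower and 1 higher in line 4 and 9 lower in line 12 (medians -1.55 and -1.76). In line 12 the largest of these were PS2 (-3.47), PAP17 (-2.60) and PECP1 (-2.41). The higher one in line 4 was RNS1, a ribonuclease (log2 1.1, adjusted p = 0.040). At 250 µM Pi the root of line 12 had 8 of 12 targets called higher (median 0.76). Over all genes 5.10% were called there in either direction, with a median of 0.03. SPX1 stood at 49.6 RPKM in that root against 13.5 in WT (log2 1.84).

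Other factors of the same family, or acting on PHR1, were counted beside the shares over all genes given above. Of 11 further MYB-CC genes, limma called 0 in WT shoots after 3 days (6.81% of all genes, with 4 of the 11 at an unadjusted p under 0.05) and 3 in WT roots (12.4%), AT5G45580 higher (log2 0.78) and AT5G06800 (-0.70) and MYR1 (-0.61) lower. In the shoot after 3 days 1 of 11 was called higher in each line (8.22% and 7.69% of all genes called in either direction), MYR2 in line 4 (log2 1.56) and MYR1 in line 12 (1.11). Of 7 regulators that act on PHR1 (FHY3, FAR1, HY5, EIN3, ARF7, ARF19 and SIZ1), limma called 0 in WT shoots and 0 in WT roots after 3 days (0 and 2 at an unadjusted p under 0.05), and HY5, a light signalling factor, was called lower in shoots of line 4 at 3 days (log2 -1.0, adjusted p = 0.016). Among 10 other factors linked to the Pi response, 4 were called higher in WT roots after 3 days, with ETC1, a single-repeat MYB (log2 1.49), ERF070, an AP2/ERF factor (1.41), and HHO1, a GARP factor (0.89), the largest. In WT shoots 8 of the 10 were tested, of which WRKY45 was called higher (log2 1.21) and WRKY28 (-1.46) and HRS1 (-1.17) lower.

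WRKY75, the WRKY factor known to modulate starvation genes, was not called in starved WT seedlings and was higher in the shoots of line 12 than in those of WT. In WT shoots its level was 1.66 and 0.495 RPKM at 250 µM Pi, 0.383 and 0.640 after 1 day and 0.900 and 0.920 after 3 days. In line 12 it was 8.54 and 11.6, then 13.2 and 14.1, then 4.57 and 6.50 RPKM. Every line 12 library was above every WT library. The log2 differences from WT were 3.10 at 250 µM Pi (standard error 0.58, adjusted p = 0.0016), 4.21 after 1 day (adjusted p = 0.00011) and 2.30 after 3 days (adjusted p = 0.0077). Without the 5 libraries with genes of their own, the difference at 250 µM Pi was 2.20 (adjusted p = 0.29) and that at 3 days 2.31 (adjusted p = 0.12), and without replicate 2 of line 12 the latter was 2.05 (adjusted p = 0.063). The 1-day difference passed under every alternative tried (log2 3.28 to 4.45). In line 4 the levels were 10.1 and 1.69 RPKM, then 2.90 and 2.66, then 1.54 and 2.31. The 1-day difference from WT was called (log2 2.01, adjusted p = 0.022), but not without line 4 replicate 1 (1.95, adjusted p = 0.090) or replicate 2 (2.07, adjusted p = 0.073), WT replicate 1 (1.77, adjusted p = 0.12) or the 5 libraries (2.07, adjusted p = 0.21). The 250 µM Pi difference of 1.91 missed the adjusted p (0.061). It was 3.12 without line 4 replicate 2 and 2.59 without WT replicate 1, in fits that leave 1 library in a group. Without that line 4 library the 3-day change of WRKY75 within line 4 was -2.28. Its difference from the WT response was then -2.24.

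WRKY6, a repressor of PHO1, was also higher in line 12 shoots at 250 µM Pi and after 1 day. In WT shoots it had 6.11 and 4.83 RPKM at 250 µM Pi, 7.27 and 6.90 after 1 day and 6.69 and 7.38 after 3 days. In line 12 it had 10.4 and 16.7, then 16.1 and 17.1, then 9.11 and 9.06 RPKM, above WT at each Pi supply without overlap. It was called at 250 µM Pi (log2 1.24, adjusted p = 0.0013) and after 1 day (1.20, adjusted p = 0.00096) and not after 3 days (0.36, adjusted p = 0.22). At 250 µM Pi it was not called without the 5 libraries (0.74, adjusted p = 0.24), and without line 12 replicate 2 it fell under 2-fold (0.90, adjusted p = 0.018). The 3-day response of line 12 was lower than that of WT by 0.88 (log2 -0.88, adjusted p = 0.049). This call was lost without the 5 libraries (-0.31, adjusted p = 0.64), without replicate 2 of WT (-0.72, adjusted p = 0.16) or of line 12 (-0.54, adjusted p = 0.19) at 250 µM Pi, and without any of the 4 libraries of WT and line 12 after 3 days (adjusted p from 0.075 to 0.12). Line 4 had 11.7 and 7.16 RPKM at 250 µM Pi, where its difference of 0.73 missed the adjusted p (0.066), and 6.60 to 8.08 in its starved libraries. WRKY42, the other repressor of PHO1, stayed at or under 0.885 RPKM in all 18 shoot libraries and was not called there in the main fit. Without the filter on low values it was called higher in line 12 than in WT at 250 µM Pi (log2 0.80, adjusted p = 0.044). PHO1 itself was at 5.33 RPKM in WT shoots at 250 µM Pi and 7.73 after 3 days (log2 0.52, adjusted p = 0.0505).

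So in shoots at 250 µM Pi 1 of 10 members (ZAT6) was called in line 4, against 3.21% of genes, and 3 of 10 (WRKY75, WRKY6 and ZAT6, all higher) in line 12, against 9.04%. After 1 day 1 of 10 was called in line 4 (5.84% of genes) and 4 of 10 in line 12 (11.3%), and after 3 days 1 of 10 in line 4 (8.22%) and 2 of 10 in line 12 (7.69%). Within the lines, limma called 0 of 10 members between 3 days and 250 µM Pi in line 4 (6.96% of genes, with 4 members at an unadjusted p under 0.05) and 1 of 10 in line 12 (8.27%). Salicylate response genes were high in the line 12 shoots in which WRKY75 and WRKY6 were high. The sum of PR1, PR2, PR5, WRKY70, EDS1 and PAD4 was 63.2 to 106 RPKM in WT at 250 µM Pi, 187 to 291 after 1 day and 212 to 280 after 3 days. In line 12 it was 1352 to 1909, 1465 to 1526 and 458 to 539. In line 4 it was 378 to 401 after 1 day and 152 to 219 after 3 days, the latter not above WT although both WRKY75 values were, and within WT the sum was higher in starved shoots while WRKY75 was not. Over the 9 group means of the shoot the r of WRKY75 with the 6 genes ran from 0.27 (WRKY70) to 0.97 (PR1), and that of WRKY6 from 0.53 (WRKY70) to 0.95 (PR5). All 6 were called higher in line 12 at 250 µM Pi, PR2 (log2 6.36), PR1 (6.23) and PR5 (4.67) most, and 3 of 6 after 1 day. In line 4 at 250 µM Pi the sum was 1343 in replicate 1 and 393 in replicate 2, the order of WRKY75, WRKY6, ZAT6 and PHT5;1 in the same libraries. None of the 6 was at 0 in a shoot library, roots had 28.7 to 42.7 RPKM, and their part in the WRKY results was not tested.

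In the root WRKY75 began lower in the lines than in WT and rose in both of them with starvation. WT libraries had 14.8 and 14.7 RPKM at 250 µM Pi, 13.6 and 10.7 after 1 day and 13.6 and 11.4 after 3 days, and the 3-day change of -0.24 did not pass (95% interval -0.63 to 0.14). Line 4 had 7.85 and 5.49 RPKM at 250 µM Pi, 16.3 and 17.4 after 1 day and 15.7 and 15.0 after 3 days. Line 12 had 10.3 and 7.49, then 16.1 and 22.4, then 19.3 and 19.2. At 250 µM Pi both lines were under both WT libraries, and in every starved group they were above them. Line 4 was called lower than WT at 250 µM Pi (log2 -1.14, standard error 0.18, adjusted p = 0.00084) and so was line 12 (-0.73, adjusted p = 0.018). Within line 4 the 3-day change was 1.20 (adjusted p = 0.00012) and within line 12 it was 1.11 (adjusted p = 0.00043). The difference of these responses from that of WT was 1.44 in line 4 (standard error 0.26, adjusted p = 0.0022) and 1.35 in line 12 (standard error 0.26, adjusted p = 0.0020), and both passed under every alternative tried. WRKY75 was the member that passed there, 1 of 9 in line 4 against 6.42% of genes and 1 of 9 in line 12 against 11.1%. The differences of line 12 from WT after 1 day (0.64, adjusted p = 0.029) and 3 days (0.62, adjusted p = 0.036) and at 250 µM Pi hung on single libraries. Without WT replicate 2 they were 0.47 (adjusted p = 0.21), 0.50 (adjusted p = 0.25) and -0.74 (adjusted p = 0.096). Without line 12 replicate 2 they were 0.41 (adjusted p = 0.36), 0.63 (adjusted p = 0.17) and -0.50 (adjusted p = 0.23). The 3-day call was also lost without replicate 1 of WT (0.75, adjusted p = 0.066) or line 12 (0.62, adjusted p = 0.14), and the one at 250 µM Pi without WT replicate 1 (-0.72, adjusted p = 0.095).

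WRKY42 was called higher after 3 days of starvation in roots of both lines. WT had 2.51 and 1.84 RPKM at 250 µM Pi, 1.90 and 2.14 after 1 day and 3.64 and 2.78 after 3 days. The 3-day change of 0.51 in WT did not pass (adjusted p = 0.087), but was called after rescaling by median ratio (0.57, adjusted p = 0.047). Line 4 went from 1.34 and 1.06 to 2.99 and 3.31 RPKM in 3 days (log2 1.24, adjusted p = 0.00045). Line 12 went from 1.93 and 1.09 to 4.42 and 4.46 (log2 1.45, adjusted p = 0.00018). In neither line did the starved and control libraries overlap. The difference of response from WT was 0.72 in line 4 (adjusted p = 0.20) and 0.94 in line 12 (adjusted p = 0.060). In line 12 it passed with a pseudocount of 1 (0.73, adjusted p = 0.048), after rescaling (0.95, adjusted p = 0.039), and without line 12 replicate 1 (1.29, adjusted p = 0.0096) or WT replicate 2 (1.14, adjusted p = 0.049) at 250 µM Pi. Line 4 at 250 µM Pi was called lower than WT (-0.74, adjusted p = 0.045) and line 12 after 1 day higher (0.78, adjusted p = 0.027). The first was lost without WT replicate 1 (-0.54, adjusted p = 0.36) or replicate 2 (-0.94, adjusted p = 0.054) or line 4 replicate 2 (-0.60, adjusted p = 0.23). The second was lost without replicate 1 of WT (0.70, adjusted p = 0.15) or line 12 (0.81, adjusted p = 0.084), or replicate 2 of WT (0.86, adjusted p = 0.067) or line 12 (0.75, adjusted p = 0.17).

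In roots, then, 2 of 9 members were called in line 4 at 250 µM Pi (WRKY75 and WRKY42, both lower, against 4.44% of genes) and 1 of 9 in line 12 (5.10%). After 1 day limma called 0 of 9 in line 4 (3.17%, with 1 at an unadjusted p under 0.05) and 2 of 9 in line 12 (WRKY75 and WRKY42, both higher, 5.87%), and after 3 days 0 of 9 in line 4 (3.02%, again 1) and 1 of 9 in line 12 (5.18%). Between 3 days and 250 µM Pi 3 of 9 were called higher within line 4 (WRKY75, WRKY42 and ZAT6, 13.0% of genes called) and 2 of 9 within line 12 (8.59%). ZAT6 in line 4 went from 14.1 and 13.9 to 22.9 and 22.1 RPKM (log2 0.67, adjusted p = 0.0029). WRKY6 in the root ran from 23.6 to 37.9 RPKM. Within line 4 it went from 27.5 and 23.6 to 37.7 and 35.6 (log2 0.52, adjusted p = 0.0011), a ratio of 1.44 under the 1.5 required. PHO1, the gene that WRKY6 and WRKY42 repress, was at 157 RPKM in WT roots at 250 µM Pi and 149 after 3 days (log2 -0.08, adjusted p = 0.48). Among 4 genes linked to members other than PHR1, PHT1;1, a Pi uptake transporter (log2 1.71), PPCK1 (1.26) and PPCK2 (1.92), kinases of PEP carboxylase, were called higher in WT roots after 3 days. In line 12 at 250 µM Pi 2 of these 4 were called higher, PPCK2 (1.16) and PPCK1 (0.64). Over all genes 12.4% were called in WT roots after 3 days and 5.10% in line 12 roots at 250 µM Pi.

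**Figure D4:**
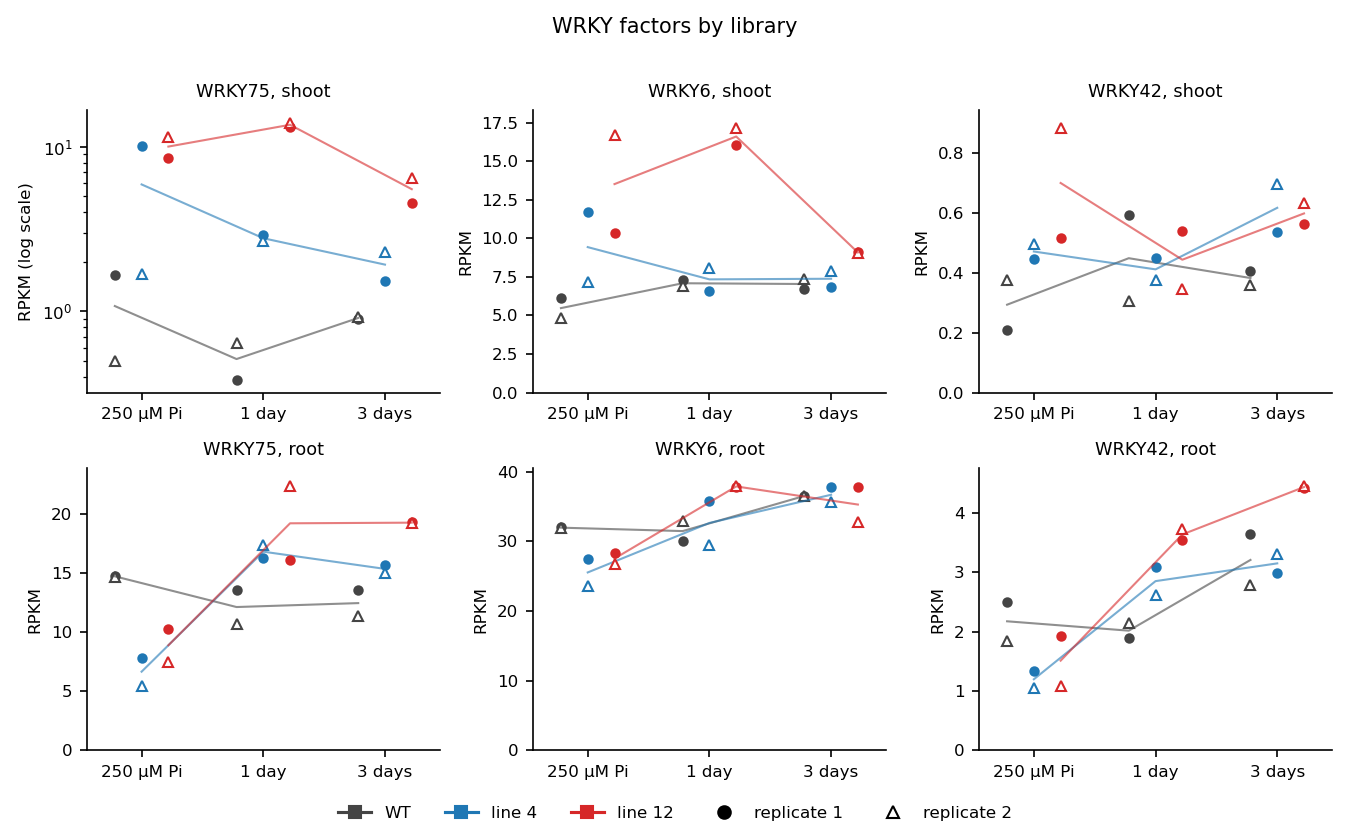
RPKM of WRKY75, WRKY6 and WRKY42 (columns) in each library of shoots (top) and roots (bottom) by Pi supply and genotype, with lines through the group means of 2 libraries and a log scale for WRKY75 in shoots. In shoots WRKY75 lies between 0.383 and 1.66 RPKM in WT and between 4.57 and 14.1 in line 12, and in roots at 250 µM Pi at 14.8 and 14.7 in WT and between 5.49 and 10.3 in the lines.

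MYB62, the R2R3-MYB factor, was barely expressed. Shoot libraries had 0.188 to 1.48 RPKM, a median of 0.559, and root libraries 0 to 0.215. In WT shoots the values were 0.312 and 0.558 RPKM at 250 µM Pi, 0.473 and 0.188 after 1 day and 0.191 and 0.767 after 3 days, and the groups overlapped. Line 12 after 1 day had 1.48 and 1.31 RPKM, above all 6 WT libraries, and was called higher than WT (log2 1.55, standard error 0.42, adjusted p = 0.0098). That call was lost without WT replicate 2 (1.18, adjusted p = 0.086), without line 12 replicate 1 (1.47, adjusted p = 0.056) and without the 5 libraries (1.62, adjusted p = 0.058). BHLH32, known as a negative regulator of starvation genes, was called in no comparison within a tissue with all libraries. It ran from 28.7 to 40.2 RPKM over the root libraries and from 3.08 to 9.85 over those of the shoot. In WT roots it went from 35.8 and 36.9 to 28.7 and 30.7 RPKM in 3 days (log2 -0.29, adjusted p = 0.010, ratio 0.82). In shoots line 12 after 1 day had 4.02 and 3.08 RPKM against 4.88 and 7.35 in WT (log2 -0.73, adjusted p = 0.015, ratio 0.58), a difference that was called without WT replicate 1 (-1.01, adjusted p = 0.0060). The highest shoot values were those of line 4 after 3 days, 9.85 and 9.36 RPKM against 5.48 and 7.60 in WT (log2 0.56, adjusted p = 0.056).

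**Figure D5:**
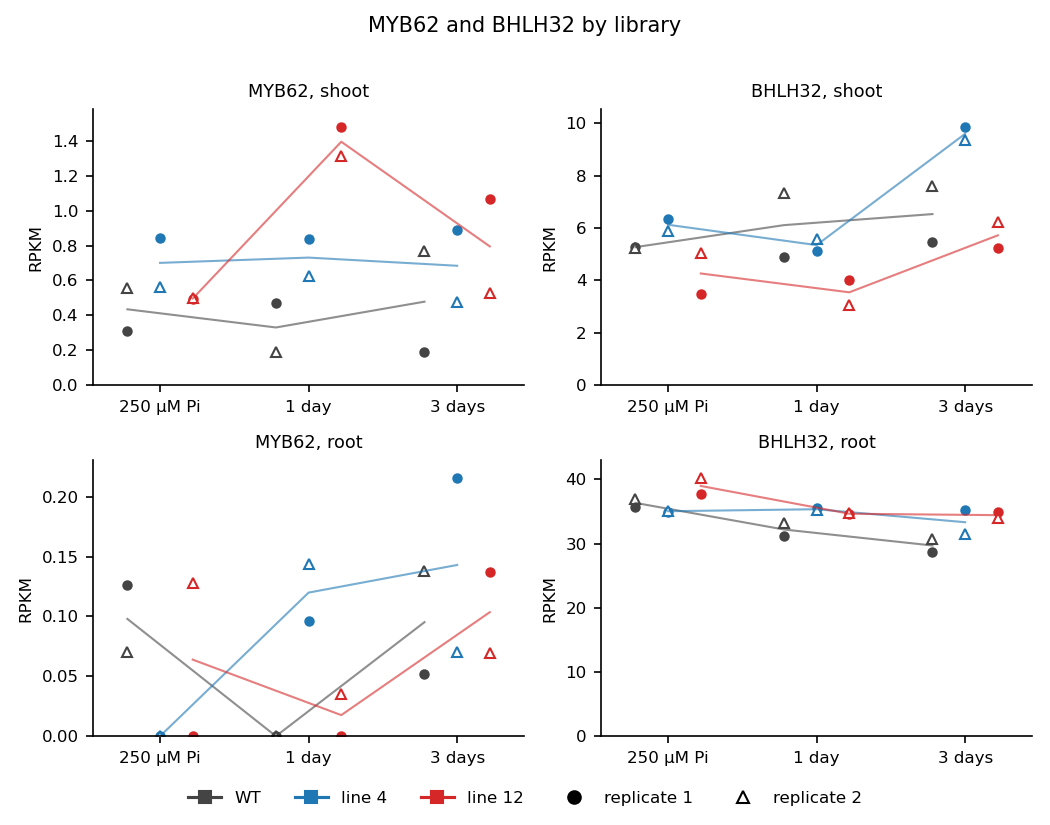
RPKM of MYB62 and BHLH32 (columns) in each library of shoots (top) and roots (bottom) by Pi supply and genotype, with lines through the group means of 2 libraries. MYB62 exceeds 1.3 RPKM only in both line 12 shoot libraries after 1 day, and BHLH32 lies between 28.7 and 40.2 RPKM in roots and between 3.08 and 9.85 in shoots.

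For each member called within a tissue, differences of response included, the 3 genes with the most similar profile over the 9 group means were looked up by Pearson's r of log2(RPKM + 0.25), as a description of 9 points that share their libraries. In shoots WRKY75 was nearest to DMR6, an oxygenase that lowers salicylate (r = 0.99), AT2G45220 (0.99), annotated as a pectin methylesterase inhibitor family protein, and AT5G44990 (0.99), a glutathione S-transferase family protein. WRKY6 was nearest to CYP71B6 (0.99), AT1G66880 (0.99), a protein kinase family member, and AT5G60800 (0.98). ZAT6 was nearest to AT2G25735 (0.99), AT1G67880 (0.99) and RDUF2, a RING finger protein (0.99), and MYB62 to AT1G11200 (0.99), AT3G47100 (0.97) and AT5G41180 (0.96). PHR1 was nearest to HAM1, a histone acetyltransferase (0.98), AT1G07840 (0.97) and AT1G06960 (0.97). PHL1 was nearest to AT2G43160 (0.996), AT2G33630 (0.995) and AT3G62370 (0.995), PHL2 to SRF3, RAT5 and CER2 (0.98 each), and PHL3 to AKRP, AT1G18680 and AT5G05550 (0.98 each). In roots WRKY75 was nearest to AT1G32360 (0.99), AT3G04930 (0.98) and AT1G03457 (0.98), WRKY42 to AT1G01440 (0.98), WRKY14 (0.98) and AT2G20920 (0.98), and ZAT6 to AT2G25737, AT1G24530 and RAP2.4 (0.97 each). No member was among the 3 nearest genes of another.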

How the data were processed

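RNA of shoots and roots was sequenced by the authors as paired reads on an Illumina instrument, mapped to TAIR10 in CLC Genomics Workbench and deposited as RPKM for each library. No read counts were used in any test. Values were analysed as log2(RPKM + 0.25) with limma 3.58.1 (R 4.3.3, variance trend, 9 groups and 9 residual degrees of freedom per tissue, or 18 in the joint model). Genes under a mean of 0.25 RPKM were left out, leaving 19773 shoot, 20530 root and 21141 joint genes, over which Benjamini-Hochberg adjustment was made. A fold on this scale understates the change of low genes. Mean RPKM under 0.25 were set to 0.25 for ratios. Differences of responses were called by adjusted p alone. Members and gene lists were chosen with earlier results of these data known. All members are described. Of the lists, the SPX genes are named, and of the others up to 3 called genes with the largest change in a comparison, and for called members the 3 nearest profiles. RNS1, PHO1 and the genes named with their correlations to ZAT6, WRKY75 and WRKY6 were chosen after their values were seen. The deposited tables of group means, fold changes, called genes and enrichment hold the authors' comparisons and were not used, and 146 rows without a gene name (at most 0.109% of the RPKM of a library) were excluded. Totals came from whole-read steps between RPKM values, with an exon length for 10 of 10 members. Promoters were read from the RefSeq TAIR10.1 genome.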

Additional observations from a re-analysis of the deposited data

Results flagged for a closer look

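Each of the following was noted because an effect differed between groups by a test of the difference itself, limma's contrast of 2 responses with an adjusted p under 0.05. In shoots the 3-day response of line 4 minus that of WT was 0.64 on the log2 scale for PHL1, 1.1 for PHL2, 0.77 for PHL3 and -3.51 for ZAT6. The 3-day response of line 12 minus that of WT was 0.57 for PHR1, 0.67 for PHL1, 0.95 for PHL2, 0.92 for PHL3, -0.88 for WRKY6 and -4.93 for ZAT6. In roots WRKY75 responded more than in WT by 1.44 in line 4 and by 1.35 in line 12. In WT the root response minus the shoot response was 0.46 for PHL2 and -2.51 for ZAT6. The WT libraries enter both lines' differences, and 29.8% and 33.2% of all shoot genes passed the same test. No group had enough libraries to look for single outlying samples.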

How the results depend on the processing

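Of 2956 values of single members under an alternative, 2815 kept their side of the threshold, 69 lost and 72 gained a call. Among values called in either fit 0 reversed direction. The direction of values called in neither fit was not compared. With a pseudocount of 1, 0 members were called in line 4 against WT in the shoot after 1 day, 1 in the root at 250 µM Pi, and 2 passed in the root difference of response of line 12. Rescaling by median ratio gave 2, 1 and 3 there, and 1 (WRKY42) in WT roots after 3 days. It moves the median of all genes, which lies between -0.14 and 0.19 in shoot comparisons and at 0.65 and 0.72 between the organs. Without a filter 1 member was called in line 4 and 1 and 0 in line 12 in the root, at 250 µM Pi and after 1 and 3 days. The fit without the 5 shoot libraries left a lone library in each of their groups. Fewer of all genes were called in every shoot comparison of that fit. A call lost by a member there cannot be told from this general loss. Fitting only the groups compared gave 0 in line 4 shoots at 250 µM Pi, 2 after 3 days, 1 in line 4 roots at 250 µM Pi and 1 in line 12 roots after 1 day. By adjusted p alone, shoot counts became 4 and 4 in WT after 1 and 3 days, 2, 4 and 4 in line 4 and 9 and 6 in line 12 (1 and 3 days) against WT, and 4 and 5 within lines 4 and 12, and 4 in WT roots after 3 days. Many genes pass at that setting. Of all 19773 shoot genes, in the same order, 4510 and 6017 did in WT, 1654, 5099 and 7499 in line 4 and 8096 and 7726 in line 12. Within lines 4 and 12 these were 6679 and 6626, and in WT roots after 3 days 5701 of 20530. Leaving out 1 library gave 0 to 3 members in line 4 shoots at 250 µM Pi, 0 to 1 after 1 day and 0 to 2 within line 4, 1 to 2 in line 12 after 3 days, 1 to 2 in line 4 roots at 250 µM Pi, 0 to 2 in line 12 roots at 250 µM Pi, 0 to 1 after 1 day and 0 in every case after 3 days, 1 to 4 and 1 to 2 in the root differences of response of lines 4 and 12, and 1 to 2 in the difference of the WT response between the organs.

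The correlation of the deviations of libraries with the same replicate number ran from -0.18 to 0.70 in shoots (median 0.024, above 0.1 in 11 of 36 pairs of groups) and from -0.069 to 0.24 in roots (median 0.073, above 0.1 in 10 of 36). It was not above 0.1 in every pair, so the numbers were not taken as pairs. With a replicate block 2 members instead of 1 passed in the root difference of response of line 12 (WRKY42, 0.94, adjusted p = 0.038), and WRKY6 in that of the shoot did not (adjusted p = 0.057). No other call of a member changed. Low read numbers limit MYB62 and, in shoots, WRKY42 and WRKY75. A lone library left in a group is assumed to vary like the other groups.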
